A study of Drosophila melanogaster with 4 samples.

Results

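H3K36me1 regions along the X chromosome were taken from late embryos of Drosophila melanogaster, where the X is shared by both sexes and is present as a single copy in males. They were chosen by their presence in both replicates, as the X regions of the replicate 1 list that overlap any region of the replicate 2 list by at least 1 bp, and 709 of the 1017 X regions of replicate 1 met this rule. That is 69.7%, against 69.1% on 2L, 3L and 3R together and 68.5% of the 5434 regions of the whole replicate 1 list. Since the rule used this overlap, the share is a description and nothing is read from it.

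The series comprises 4 samples of wild-type Oregon-R embryos collected at 14 to 16 h, of which 2 were immunoprecipitated with an antibody to H3K36me1 and 2 were sequenced as input chromatin. All groups share strain, genotype and stage, and whole embryos of a population cage were used, so every value is a mixture over cell types, and the labels do not give the sex of the embryos. Enriched regions were deposited for each immunoprecipitated sample with a score per region, and for the input samples no values were used. Positions are those of FlyBase release 5, counted from 1 with both ends included. Depth is unknown, because no read numbers were used here. The replicates may be technical, since the labels do not say that they came from separate collections, and with 2 samples of 1 condition no test across samples could be run. Scores are therefore given in each replicate, and numbers, lengths and gaps for the replicate 1 regions, beside the values of 2L, 3L and 3R or of these arms together.

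Lysine 36 of histone H3 can carry up to a trimethyl group. In Drosophila the trimethyl form is placed by Set2 over the bodies of transcribed genes, while Ash1 and Mes-4 are methyltransferases linked to the lower forms. The trimethyl mark is also known from dosage compensation, in which the MSL complex binds active genes on the male X and raises their output, and its subunit MSL3 recognises chromatin that carries methylated lysine 36. The monomethyl form mapped here is less well characterised, and it can arise both on the way to higher methylation and by demethylation. Genes were not assigned to these regions, because the annotation used here belongs to release 6, and no sequence is given for the same reason.

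Shared regions were spread over the whole X and were sparsest in the part nearest the centromere. The first began at 23506 and the last ended at 22413249, on an arm of 22.4 Mb. Together they covered 3.62 Mb, or 16.2% of X, against 16.3% of 2L, 17.8% of 3L and 16.9% of 3R. X held 31.6 shared regions per Mb, and the other arms held 29.2 on 2L, 31.4 on 3L and 28.7 on 3R. X therefore had the highest number of regions per Mb and the lowest covered share of the 4 arms, each close to the nearest arm by value.

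In 22 full windows of 1 Mb, the number of shared regions ran from 13 to 44 with a median of 35. The 74 windows of 2L, 3L and 3R ran from 7 to 56 with a median of 29. Among 1 Mb windows the SD was 8.34 regions on X against 10.3 on 2L, 11.8 on 3L and 10.7 on 3R. Among 250 kb windows it was 5.22 on X against 5.01, 5.26 and 4.49, so the lower spread of X was not seen at that size. Covered share had an SD of 6.00 percentage points on X and 7.19, 9.10 and 8.65 points on the other arms at 1 Mb, and of 11.9 against 13.6, 15.4 and 15.1 points at 250 kb. No 1 Mb window of X was covered to more than 30%, whereas 1 was on 2L, 2 were on 3L and 2 on 3R. At 250 kb the highest X window was covered to 46.7%, and windows over 50% numbered 1 on 2L, 5 on 3L and 4 on 3R. X had no window at these levels, and 2L had only 1, while windows over 30% at 250 kb had similar shares, at 16 of 89 (18.0%) against 50 of 301 (16.6%).

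The densest X window was that from 19000001 to 20000000, with 44 shared regions that covered 26.4%. The whole list covered 29.8% of it in replicate 1 and 24.6% in replicate 2. The window from 3000001 to 4000000 followed with 32 regions and 26.2% covered, where the lists gave 27.2% and 24.9%. Next was the window from 2000001 to 3000000, with 41 regions and 24.9% covered, at 28.3% and 24.3% in the lists. The first and the second of these reached nearly the same covered share with different numbers of regions. The median length was 2742 bp in the one and 4024 bp in the other, and each held 6 regions of at least 10 kb.

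The emptiest window was the last full one, from 21000001 to 22000000, with 13 regions and 3.28% covered. Both lists were low there, at 5.37% in replicate 1 and 3.11% in replicate 2. The window from 14000001 to 15000000 held 22 regions that covered 7.17%, with 8.83% and 6.90% in the lists, and it lay far from either end. The window from 20000001 to 21000000 held 16 regions that covered 8.14%, with 10.3% and 8.36%. These low windows had no broad region of at least 10 kb, except for 2 in the window from 20000001.

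**Figure D1:**
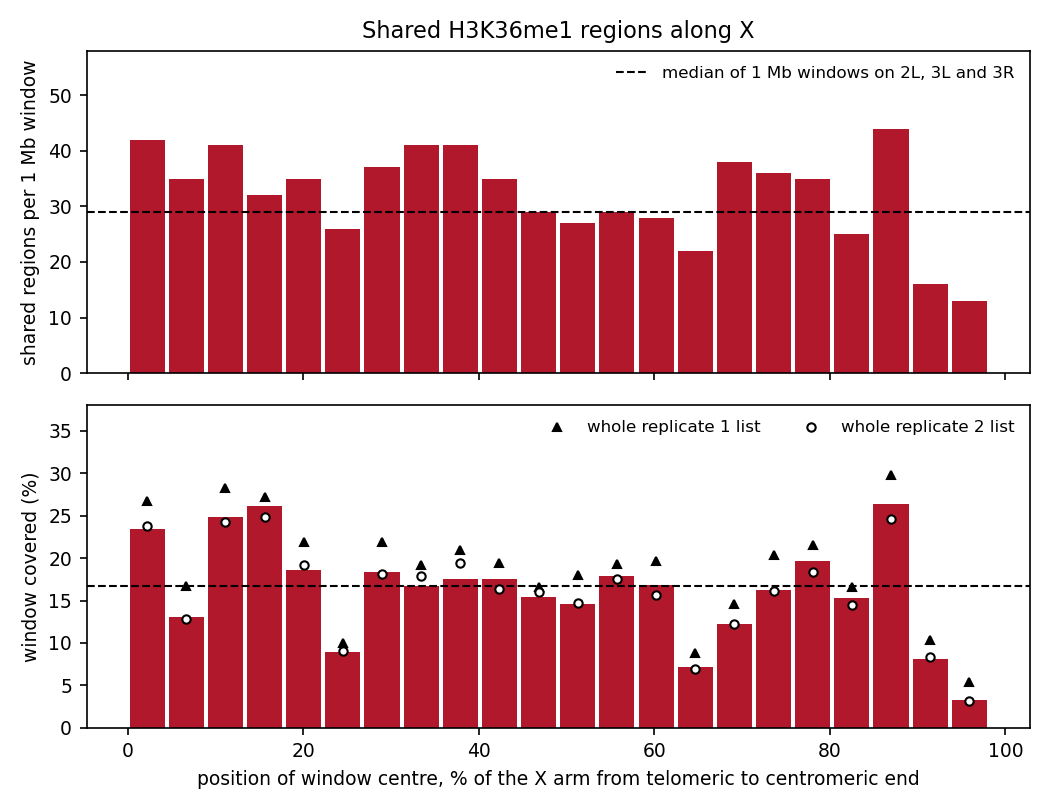
Number of shared regions (upper panel) and percent of sequence covered (lower panel) in 22 windows of 1 Mb along X; bars are shared regions, triangles and circles are the whole lists of replicates 1 and 2, and dashed lines are medians of the windows on 2L, 3L and 3R. Covered share runs from 3.28% to 26.4%, and both replicate lists are low in the same windows.

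Cut into 5 equal parts from the telomeric to the centromeric end, X held 37.7, 35.5, 29.9, 32.3 and 22.7 shared regions per Mb. The part nearest the centromere was the sparsest of the 5, and the part at the telomere was the densest. On 2L the densest part was also that at the telomere, with 33.7 per Mb, but the sparsest, with 24.3, lay in the arm's interior and the part at the centromere held 30.0. On 3L the part at the telomere was likewise the densest, at 36.7, and that at the centromere the sparsest, at 25.1, but between them it fell to 27.1 and rose again to 32.4 and 35.7. On 3R, read in the same direction, the sparsest part was that at the telomere, at 24.4, and the densest that at the centromere, at 32.1. The arms thus had no order in common. Broad regions of X numbered 23, 12, 18, 11 and 13 in the 5 parts, most in the part at the telomere and with no further order.

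By length, X differed little from the autosomal arms. A slightly larger share of its regions measured 2 to 5 kb, and slightly less of its marked sequence lay in broad ones. Of the 709 shared regions, 151 (21.3%) were under 2 kb, 371 (52.3%) were 2 to 5 kb, 110 (15.5%) were 5 to 10 kb and 77 (10.9%) were at least 10 kb. Those of 2 to 5 kb made up 48.4% on 2L, 49.4% on 3L and 48.1% on 3R. Regions under 2 kb made up 22.3%, 21.7% and 21.75% there, and those of 5 to 10 kb 15.9%, 16.9% and 17.9%, all above the X shares. Broad regions made up 13.4%, 12.1% and 12.3% there. On X the broad regions held 41.2% of the shared length, against 46.9% on 2L, 46.1% on 3L and 47.5% on 3R. The median shared region measured 2952 bp on X and 3067, 3077 and 3044 bp on 2L, 3L and 3R, and the means were 5109 bp against 5575, 5686 and 5902 bp. The X values lay below the range of the 3 arms in each of these measures of breadth, by small amounts. The share of broad regions on X minus that on the 3 arms together, -1.67 percentage points, kept its sign but not its size under other settings, from -11.3 with the higher-scoring 50% of each list to -0.425 with regions under 1000 bp apart merged.

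The shares matched in each length class were similar on X and elsewhere. Since matching is the rule itself, they are a description and nothing is read from them. In replicate 1, 39.2% of the X regions under 2 kb were matched, and 38.4% to 39.0% on the other arms. For 2 to 5 kb the shares were 83.4% on X and 81.5% to 84.0% on the others. All 110 X regions of 5 to 10 kb and all 77 of at least 10 kb were matched, as were all regions of those lengths on 2L, 3L and 3R. The rule required only 1 bp. Just inside it lay a region from 19566400 to 19567862 that overlapped replicate 2 by 9 bp, one from 824573 to 827631 that overlapped by 28 bp and one from 4038929 to 4040266 that overlapped by 44 bp. Just outside lay a region from 10749367 to 10751422 that stopped 1 bp short of a replicate 2 region, and those from 2341855 to 2343643 and from 93762 to 95293, at distances of 34 and 39 bp. Such narrow contacts were the exception, since the median shared region of X had 87.0% of its length inside replicate 2 and 54 of 709 had under 50%.

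Edges of matched regions mostly differed between the replicates, on X as on the other arms. On X, 498 shared regions matched 1 replicate 2 region that matched no other. Their starts differed by a median of 261 bp and their ends by 259 bp, and none had the same start or the same end in both replicates. On 2L, 3L and 3R the medians were 234 to 256 bp for starts and 219 to 239 bp for ends. The replicate 2 region was the shorter one in 346 of these 498 X pairs (69.5%), and lay wholly inside the replicate 1 region in 198. On the other arms replicate 2 was shorter in 68.1% to 72.2% of such pairs. Among the remaining X regions, 98 touched more than 1 region of replicate 2 and 130 shared their replicate 2 match with another, some of them both.

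Broad regions of X were slightly fewer per Mb by value than those of the other arms in the replicate 1 list, and the longest of them were shorter. There were 77 of at least 10 kb, or 3.43 per Mb, against 3.91 on 2L, 3.79 on 3L and 3.51 on 3R. They covered 6.66% of X and 7.65%, 8.22% and 8.03% of the other arms. Their median length, 15.0 kb, lay within the range of 14.3 to 16.2 kb of the other arms. The longest X region measured 72.2 kb, against 136.9 kb on 2L, 107.7 kb on 3L and 168.2 kb on 3R, so it was the upper tail that was shorter. X had 2 regions of at least 50 kb, and the other arms had 3, 4 and 6.

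Replicate 2 contained a median of 96.7% of the length of each broad X region, and the least was 64.6%. As a single stretch the match was often shorter. For 50 of the 77 the replicate 2 region with the longest overlap was shorter, for 27 it was longer, and for 17 it fell below 10 kb. Replicate 2 had more than 1 region over 32 of the 77 (41.6%), at most 3. On 2L, 3L and 3R the share so divided was 35.6%, 38.7% and 33.7%, and up to 5 pieces occurred. The division of a domain into pieces was therefore common on every arm.

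The longest shared region of X ran from 3237279 to 3309447, and its main match in replicate 2 measured 62.1 kb. It scored 1.55 in replicate 1 and 1.66 in replicate 2. The next, from 19243722 to 19301068, measured 57.3 kb in replicate 1 and lay in 3 pieces in replicate 2, the main one 36.7 kb long, with scores of 1.27 and 1.499. It was followed by a region of 47.7 kb from 581342 to 629056, in 2 pieces in replicate 2 with a main one of 41.5 kb, that scored 1.36 and 1.46. These X domains kept their place while their outer parts were called separately in replicate 2.

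A region of 43.6 kb from 17357831 to 17401424 was more divided, and its main match of 22.2 kb left the rest to 2 further pieces, with scores of 1.15 and 1.09. By contrast the region from 11387002 to 11429664 measured 42.7 kb in replicate 1 and 42.9 kb in replicate 2, with scores of 1.29 and 1.41. The region from 2849174 to 2885474 was likewise undivided, at 36.3 and 37.6 kb, and scored 1.43 and 1.45. Another undivided one, from 6869016 to 6902844, measured 33.8 and 33.6 kb and scored 1.68 and 1.78. Undivided and divided domains thus occurred side by side among the longest.

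Of the other long ones, the region from 13110796 to 13152790 measured 42.0 kb with a main match of 31.5 kb, and scored 1.51 and 1.60. That from 18821579 to 18851866 measured 30.3 kb with a main match of 27.5 kb, and scored 1.52 and 1.64. The region from 22229557 to 22265492, 35.9 kb long with a main match of 21.1 kb, was the only one of the 10 longest within the sequence beyond the last full window, next to the centromere. It had the lowest scores of the 10, at 1.02 and 1.04, although it followed a gap of 324.7 kb with no shared region.

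**Figure D2:**
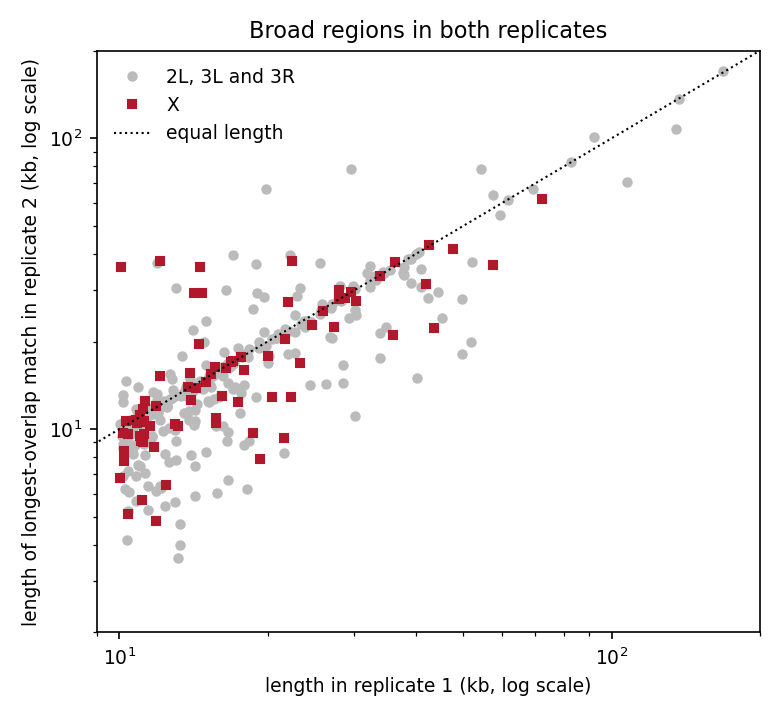
Length of each shared region of at least 10 kb in replicate 1 (horizontal axis, kb, log scale) against the length of the replicate 2 region with the longest overlap (vertical axis, kb, log scale); red squares are the 77 regions on X, grey circles are those on 2L, 3L and 3R, and the dotted line marks equal length. On X 50 of 77 points lie below the line, and no X point reaches the lengths of over 100 kb seen on the autosomes.

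Shared regions of X came in short runs divided by long empty stretches, as on the autosomes. The 708 gaps between neighbours on X had a median of 5.51 kb, with 10% at most 308 bp long and 10% at least 78.6 kb long. On the other arms the 10th percentile was 357 to 395 bp, above that of X, and the 90th was 75503 to 91360 bp. Median gaps were 4940 bp on 2L, 4510 bp on 3L and 6679 bp on 3R, so X lay inside their range. Gaps under 1 kb made up 22.0% on X and 19.3% to 24.1% on the other arms. Gaps over 50 kb made up 13.8% on X, below the 15.5% to 16.5% of the others, yet they held 59.8% of the X sequence, against 57.4% to 62.8%. Gaps over 200 kb numbered 19 and held 23.3% of X, and on 2L, 3L and 3R they held 20.2%, 15.3% and 23.8%.

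The longest gap on X, 554.3 kb from 19794983 to 20349307, was the longest between neighbouring shared regions on the 4 arms. The longest on the others were 495.2 kb on 2L, 448.0 kb on 3L and 493.5 kb on 3R, but the end of 3L after its last shared region measured 861.7 kb. It began inside the most densely covered window, and 4 regions of replicate 1 and 3 of replicate 2 lay in it or reached into it. Further gaps were 401.6 kb from 14116544 to 14518125, 349.8 kb from 21501092 to 21850887, 329.7 kb from 9638940 to 9968680 and 324.7 kb from 21904829 to 22229556. Of these 5, 3 lay in the last 3 Mb of the arm. Of the 54 X gaps over 100 kb, 7 held no region of either replicate, and each was reached by at least 1 region of the deposited list that covers both replicates together, called the set list here. On the other arms 7 of 62, 6 of 54 and 9 of 64 such gaps held no region of either replicate. There too every such gap was reached by the set list, except for 1 on 3R.

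**Figure D3:**
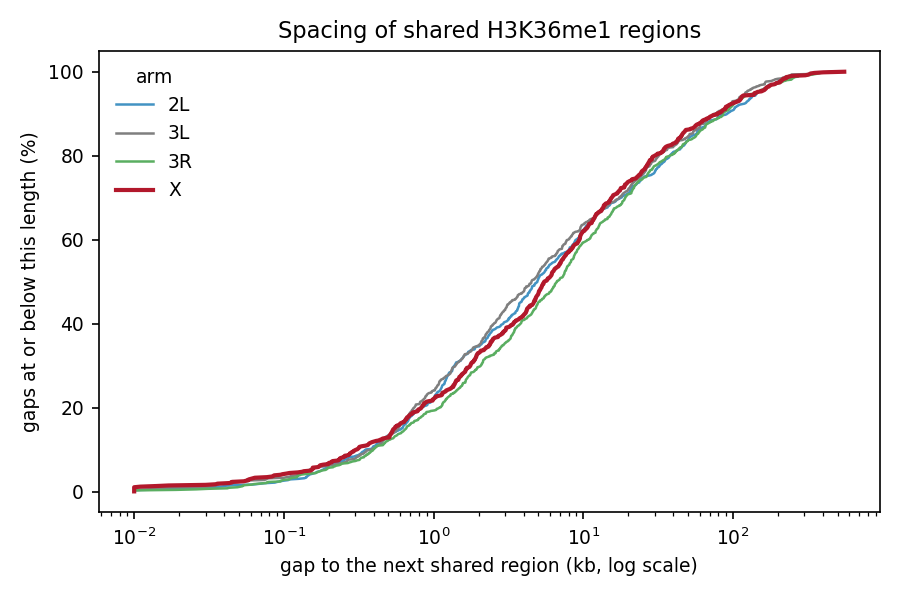
Cumulative share of gaps (vertical axis, %) by gap length (horizontal axis, kb, log scale, gaps under 0.01 kb drawn at 0.01) between neighbouring shared regions on X, 2L, 3L and 3R. The X median of 5.51 kb lies inside the range of the other arms. At the 10th percentile X lies below all 3, at 308 bp against 357 to 395 bp. It does so too at the 75th, at 23030 bp against 24177 to 26406 bp.

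When neighbours less than 5 kb apart were joined into chains, X gave 155 chains with 488 regions and 221 isolated regions. Isolated regions were 31.2% of the shared regions on X, 28.8% on 2L, 26.9% on 3L and 32.6% on 3R. Chains of at least 5 regions held 22.4% on X, against 27.0%, 30.0% and 18.0%. X was therefore between 3R and the other arms in how far its regions were grouped. Isolated X regions had a median score of 0.749 in replicate 1, close to the 0.744 of those in chains, whereas on 2L, 3L and 3R isolated regions scored 0.615, 0.616 and 0.636 against 0.675, 0.682 and 0.670 in chains. In replicate 2 the isolated X regions were lower, at 0.807 against 0.855, as were those of 2L at 0.665 against 0.764, of 3L at 0.656 against 0.760 and of 3R at 0.676 against 0.755. Isolated and chained regions were thus closest in score on X in both replicates by value, and the difference between arms was not tested. Their median lengths were closest on X too, at 2680 and 3178.5 bp. They were 2673 and 3408 bp on 2L, 2676 and 3375 bp on 3L and 2519 and 3325 bp on 3R. The part of length in the scores was not tested here.

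The X chain with the most regions ran from 16032285 to 16111024 and held 13 regions over 78.7 kb, which covered 83.8% of it. Their replicate 1 scores ran from 0.500 to 1.10, and their lengths from 1.33 to 20.4 kb. A chain from 7056582 to 7132246 held 10 regions over 75.7 kb, with scores from 0.454 to 1.32. These long chains were largely marked sequence with short interruptions. A chain of 9 regions from 20541308 to 20570449 was of another kind, with a span of 29.1 kb, a longest region of 3.02 kb and 62.7% covered. There were 4 chains of 8 regions, from 12586174 to 12661788, from 4449672 to 4515035, from 17597158 to 17641406 and from 5888813 to 5927737, and the first of these held the highest X score of replicate 2. The largest chains of the other arms held 16, 14 and 14 regions and spanned 173.6 to 267.3 kb. The mean number of regions per chain, isolated regions included, was 1.89 on X, 2.01 on 2L, 2.08 on 3L and 1.82 on 3R.

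X regions scored higher than autosomal regions of the same length class in both replicates. Scores are the authors' own values on a scale that is not given, and they are compared within a list only. Under 2 kb, X regions had a median score of 0.566 in replicate 1, against 0.492 to 0.494 on 2L, 3L and 3R. For 2 to 5 kb it was 0.731, against 0.641 to 0.651. For 5 to 10 kb it was 0.950, against 0.796 to 0.867. For at least 10 kb it was 1.22, against 1.02 to 1.12. In each class the X median lay above all 3 arm medians, while single regions overlapped widely, as under 2 kb, where X scores ran from 0.381 to 1.13 and autosomal ones from 0.258 to 0.784.

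In replicate 2, classed by the replicate 1 length, the X medians were 0.753, 0.810, 1.01 and 1.28 from the shortest to the longest class. The highest autosomal arm medians were 0.617, 0.715, 0.911 and 1.19. The X lay above all 3 arms in every class again. X minus autosomal medians were 0.0738, 0.0844, 0.102 and 0.135 in replicate 1 and 0.140, 0.104, 0.115 and 0.156 in replicate 2. The difference thus grew with length in replicate 1 and had no such order in replicate 2. From the shortest to the longest class the range among the 3 arm medians grew too. It rose from 0.00130 to 0.105 in replicate 1 and from 0.00582 to 0.106 in replicate 2. Among X regions under 2 kb, 107 of 151 (70.9%) had a longer match in replicate 2, against 293 of 491 (59.7%) on the 3 arms, and the part of this in the replicate 2 value of the class was not tested.

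**Figure D4:**
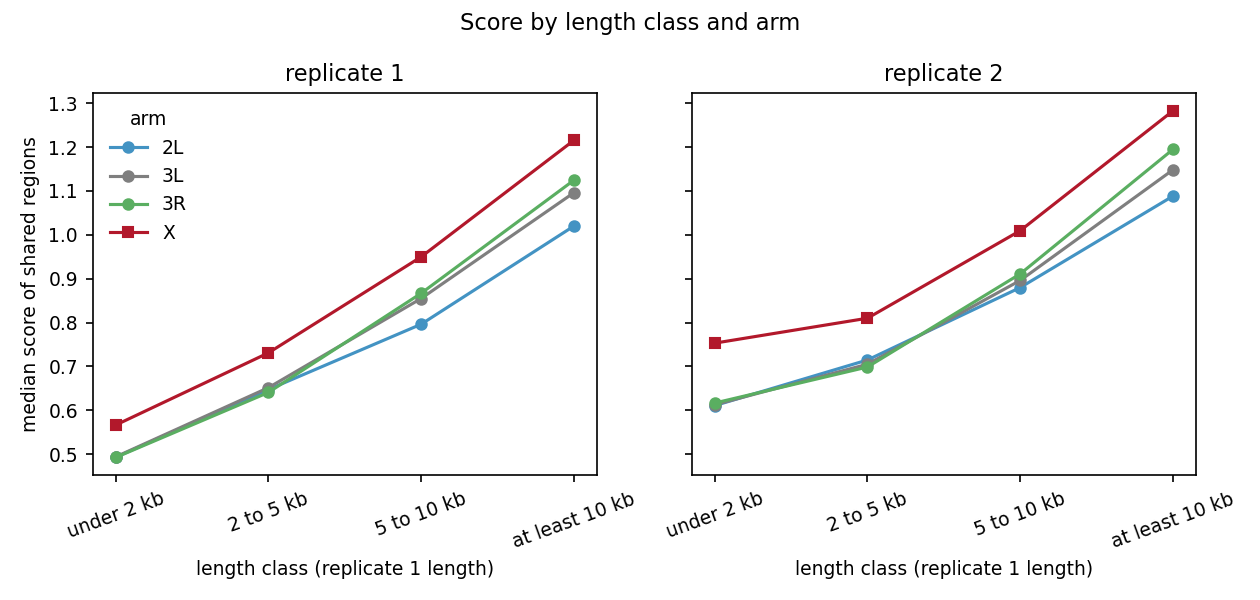
Median score of shared regions (vertical axis, the authors' score) in 4 length classes by replicate 1 length, for X (red squares) and 2L, 3L and 3R (circles), in replicate 1 (left) and replicate 2 (right). The X median is the highest in all 4 classes of both replicates, from 0.566 to 1.22 in replicate 1.

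Set against the autosomal median of their own length class, 572 of the 709 X regions (80.7%) scored above it in replicate 1 and 539 (76%) in replicate 2. The autosomal regions gave 49.9% in both, as the use of their own median sets. Above it in both replicates were 470 X regions (66.3%), and below or at it in both were 68 (9.59%). On 2L, 3L and 3R, 34.3% to 37.7% were above in both. From the shortest to the longest class the share on X was 84.8%, 83.8%, 69.1% and 74.0% in replicate 1 and 88.7%, 73.9%, 71.8% and 67.5% in replicate 2, highest under 2 kb in both.

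The higher level was found from the lower to the upper part of the distribution of X scores, while X did not have the highest maximum in either replicate. At the 10th percentile X was 0.0793 above the 3 arms together in replicate 1 and 0.0941 in replicate 2. At the 90th percentile it was 0.103 and 0.149 above. Scores over 1.5 were reached by 30 X regions (4.23%) in each replicate. On the other arms they were reached by 1.63%, 1.69% and 2.50% in replicate 1 and by 1.63%, 1.56% and 2.88% in replicate 2. On every arm a replicate 2 match that serves several regions is counted for each of them. The highest X score was 1.99 in replicate 1, below the 2.20, 2.23 and 2.16 of 2L, 3L and 3R. Among the replicate 2 matches it was 2.03, below the 2.22 of 2L and 2.11 of 3R and above the 2.00 of 3L. In the whole replicate 2 list X had the lowest maximum, at 2.03 against 2.22 on 2L, 2.08 on 3L and 2.46 on 3R. The lowest X score was 0.381 in replicate 1, above the 0.258 to 0.267 of the other arms, and 0.458 in replicate 2, above 0.300 to 0.336.

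The score difference did not keep its sign when the lists were cut by score. With each list cut at its own median score before matching, 478 of 1017 regions remained on X and 1017 of 3247 on the 3 arms. The median score of X was then below theirs, at 0.835 against 0.869. The cause of this turn was not tested. Since the cut was made on the compared score and kept unlike shares, this setting cannot decide whether the difference holds. Input values are not at hand, and whether the copy number of X in the embryos bears on the scores was not tested.

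Along the arm the higher scores were found nearly everywhere. In replicate 1, 20 of 22 windows of 1 Mb had a median score above that of all autosomal regions, and in replicate 2, 21 of 22. On 2L, 3L and 3R, 10 of 23, 14 of 24 and 15 of 27 windows were above it in replicate 1, and 13, 13 and 12 in replicate 2. Window medians on X ran from 0.627 to 0.869 in replicate 1 and from 0.695 to 0.971 in replicate 2. The lowest was the window from 21000001 in both replicates, which was also the emptiest. The highest was that from 11000001 in replicate 1 and that from 12000001 in replicate 2, so the replicates did not share the peak.

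With length class taken into account, all 22 X windows had a majority of regions above the autosomal class median in replicate 1, from 68.8% to 92.6%. In replicate 2, 21 windows did, and the window from 21000001 had 46.2% of its 13 regions above. The window from 5000001 to 6000000 was high in both, with 92.3% and 96.2% of 26 regions. The window from 16000001 differed between replicates, at 80.6% and 52.8% of 36 regions. In the 5 parts of the arm the share was 80.5%, 82.4%, 82.8%, 82.1% and 73.5% in replicate 1 from telomere to centromere, and 77.5%, 81.8%, 79.1%, 68.3% and 71.6% in replicate 2. Both replicates thus had lower values in the part nearest the centromere than in the first 3 parts.

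**Figure D5:**
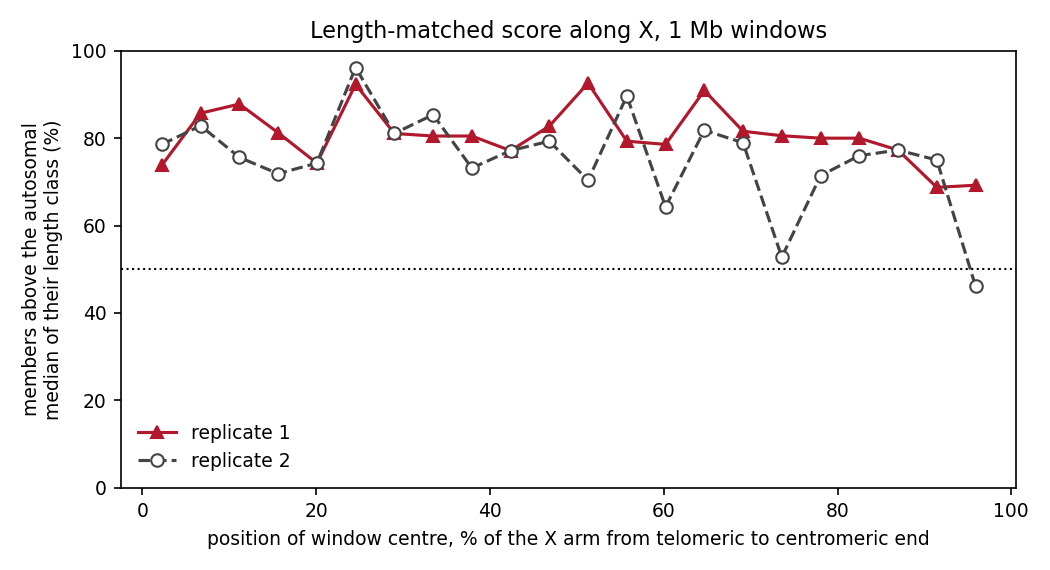
Percent of shared X regions that score above the autosomal median of their length class (vertical axis) in 22 windows of 1 Mb along X, for replicate 1 (triangles) and replicate 2 (circles); the dotted line marks 50%. All replicate 1 windows lie above it, and in replicate 2 the window nearest the centromere lies below it at 46.2%.

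The 10 highest-scoring X regions measured from 4.13 to 33.8 kb, and each had 1 match in replicate 2. By the mean rank of score, the first was that from 12607357 to 12629028, at 1.98 in replicate 1 and 2.03 in replicate 2. It lies 2169 bp before the third, from 12631198 to 12644974, which scored 1.94 and 2.01. The second, from 6762179 to 6772352, scored 1.99 and 1.93. A much shorter neighbour of it, 4.13 kb long from 6756666 to 6760791, scored 1.67 and 1.80, and it was the shortest of the 10. High scores were thus found in neighbours at both places, across different lengths.

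The fourth place was held equally by a 27.9 kb region from 3028746 to 3056647, at 1.94 and 1.87, and a 29.6 kb region from 19656124 to 19685676, at 1.86 and 1.89. In replicate 2 these measured 27.9 and 29.7 kb. Regions of 9.76 kb from 9980394 to 9990152 and of 17.0 kb from 10691995 to 10709036 followed, at 1.84 and 1.82, and at 1.81 and 1.85. Next was an 11.0 kb region from 15706866 to 15717894, at 1.70 and 1.73. The region of 33.8 kb from 6869016 to 6902844 completes the 10 and is the only one that is also among the 10 longest. It lies near the second and the shortest one, so 3 of the 10 fell within the window from 6000001 to 7000000.

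Score and length ranked alike across X regions, with a Spearman correlation of 0.816 in replicate 1 over 709 regions, against 0.822 to 0.849 on the other arms. The scores of both replicates had a Spearman correlation of 0.688 on X, below the 0.741 to 0.774 of 2L, 3L and 3R. These describe regions of the same pair of libraries, in which a replicate 2 region can serve several regions of replicate 1, and carry no p-value.

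Every shared region of X, and of 2L, 3L and 3R, also overlapped the set list, which comes from the same samples and is no independent check. Of the 709 on X, 556 (78.4%) lay wholly inside 1 region of that list, against 80.1% on 2L, 78.8% on 3L and 80.25% on 3R. Of the 571 set regions that overlapped shared X regions, 103 overlapped more than 1. On 2L, 3L and 3R, 86 of 550, 101 of 618 and 87 of 681 did so. The X set region that overlapped the most ran from 12097480 to 12165432, with 6 shared regions over 68.0 kb. The most for 1 set region was 8 on 2L, 6 on 3L and 5 on 3R. Set regions of at least 10 kb that overlapped shared X regions numbered 105, or 4.68 per Mb, against 4.61 on 2L, 4.93 on 3L and 4.59 on 3R. X therefore did not have the fewest broad regions per Mb there. The longest measured 72.1 kb. The longest on the other arms measured 140.8, 118.0 and 175.4 kb.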

How the data were processed

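The deposited value is a score per enriched region. Neither the labels nor the headers state its scale, the caller or the threshold. Bowtie 0.12.7 was the aligner named in the submitters' processing notes, and each immunoprecipitated replicate was called with its own input, per the labels. Positions are on FlyBase release 5, per the file headers. Members are replicate 1 regions on X that overlap replicate 2 by at least 1 bp, and regions of 2L, 3L and 3R were chosen in the same way; 2R was not used. The replicate 2 value of a region is that of the replicate 2 region with the longest overlap. Windows count regions by their midpoint, and only full windows entered. Parts of an arm run from telomere to centromere, with 3R reversed. The members, length classes and comparisons were chosen with earlier results of these data known.

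Named regions were the 10 longest, the 10 with the highest mean rank of score, the 5 longest gaps, the 5 chains with the most regions (7, since 4 were tied), the 3 windows of 1 Mb at either end of covered share and the 3 regions nearest to either side of the overlap limit. No test was run, since 2 samples of 1 condition allow none. Alternatives were each replicate alone, replicate 2 as the base, a reciprocal overlap of 50%, merging of regions under 1000 bp apart, the part of each list above its median score (higher-scoring 50%), the set list and 500 kb windows. Planted gaps, matches and score differences in simulated data were used to test the code. Computation used pandas 2.3.3 and NumPy 2.4.6 in Python 3.11.15, with SciPy 1.17.1 for correlations and matplotlib 3.10.9 for plots.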

Additional observations from a re-analysis of the deposited data

How the results depend on the processing

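Of 43 alternative values, 15 stayed within the limits used to judge them, which for all but the number of regions is the SD between the replicate lists, and that SD is small. For the share of X windows above the autosomal median score it was 0, so none of the alternatives for that share could stay within it. The number of X regions was 709 and was 1534 in the set list. The ratio of regions per Mb on X to the autosomal arms was 1.06. It ran from 1.05 to 1.05 in each replicate alone, and was 1.05 with replicate 2 as the base, 1.04 with reciprocal overlap, 1.58 with the higher-scoring 50%, 1.05 with merging and 1.10 in the set list. The share of regions of at least 10 kb on X minus that on the autosomal arms was -1.67 percentage points. It ran from -1.44 to -1.08 in each replicate alone, and was -2.23 with reciprocal overlap, -11.3 with the higher-scoring 50%, -0.425 with merging and -0.689 in the set list. The ratio of median gaps was 1.05, ran from 1.13 to 1.22 in each replicate alone, and turned to 0.966 with reciprocal overlap and to 0.534 with the higher-scoring 50%. The difference in median score was 0.0871, ran from 0.0897 to 0.114 in each replicate alone, was 0.113 with replicate 2 as the base, and turned to -0.0348 with the higher-scoring 50%. The share of X windows above the autosomal median score was 90.9%. It was 100% in each replicate alone and in the set list, 95.5% with replicate 2 as the base, with reciprocal overlap and with merging, 86.4% with windows of 500 kb, and 18.2% with the higher-scoring 50%. The cause of these changes was not tested. The higher-scoring 50% is cut on the compared score, so its score values cannot decide whether the score difference holds. No paired analysis was possible because no values of the input samples were used and no test was run. How far depth limits the calling of short X regions was not tested, since read numbers were not used.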

Other observations

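X regions called in 1 replicate alone also had higher median scores than those of the other arms. The 308 X regions found in replicate 1 alone had a median score of 0.606, against 0.512 to 0.517 on 2L, 3L and 3R, at median lengths of 1676 bp against 1621 to 1719 bp. The 115 found in replicate 2 alone had a median of 0.738, against 0.602 to 0.606. None of the regions found in replicate 1 alone reached 10 kb on any of these arms. The longest measured 4343 bp on X, against 3652 bp on 2L, 4809 bp on 3L and 4405 bp on 3R. Over all X regions the lowest score was 0.324 in replicate 1 and 0.450 in replicate 2, and 39 and 71 regions of 2L, 3L and 3R scored below these. These are the same lists and samples as in the results above, so they are no separate evidence, and the cause was not tested.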
